A study of Homo sapiens with 84 samples.

Results

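The genes described here are 46 interferon-stimulated genes that lie outside the OAS, IFIT, MX, IFITM, PARP, ISG15 and MHC families. They were chosen by name from known interferon-induced genes, with earlier results of these data known, and all 46 had a row among the 57964 genes of the count table. Enough counts for a test were found for 44 of them in NCI-H1373 and for all 46 in NCI-H647. BATF2 and CASP1 were not tested in NCI-H1373, where they held 92 and 99 counts over 42 libraries.

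Interferons bind receptors at the cell surface, and the receptors pass the signal through kinases to transcription factors. These factors bind short promoter elements and switch on a broad set of genes that limit viruses, sense nucleic acids, process antigens and tune the response itself. Tumour cells can express such genes without added interferon when cytosolic nucleic acid sensors are active, and PARP7, a mono-ADP-ribosyltransferase, is known to restrain that signal.

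The study measured RNA in NCI-H1373 and NCI-H647, established lines of human non-small cell lung cancer. Per the labels, both RBN-2397 and RBN012337 inhibit PARP7, and the doses were set around the concentrations of partial and near-complete inhibition of each compound. Each line was kept for 6 h or for 24 h in the vehicle DMSO, in RBN-2397 at 10, 30 or 300 nM, or in RBN012337 at 3, 10 or 100 nM. That gave 28 groups of 3 libraries, 84 in all. The sample labels write RBN-2397 as RBN012397. Cells adhered overnight before compound was added, and RNA was read by a 3′ digital gene expression method. The labels speak of triplicate experiments without naming a culture or a day, and p-values rest on the spread of such libraries alone, part of which may be technical.

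The promoters show what many of these genes have in common outside their expression. RefSeq promoter sequences (GRCh38.p14, 250 bases before to 50 bases after the start of transcription) were found for 33 of the 46 genes. The letters GAAA, any 2 bases and GAAA again, the core of the element that interferon-activated factors bind, occurred on either strand in 18 of those 33 genes (54.5%), against 4.38% of 27305 genes with such a sequence. A longer form that goes on with CT, and so contains the first, was found in 5 of the 33 (15.2%), against 0.322% of all. A match says only that these letters occur there. The following stretches, written 5′ to 3′ on the strand of the gene, hold the first match (in capitals) in 7 genes that are described in detail here.
RTP4: tccatacacaGAAACAGAAActgaaccgaa
DDX60: gtgctgaaggGAAACTGAAAcctaagtgct
TRIM14: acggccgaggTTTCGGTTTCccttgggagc
GBP1: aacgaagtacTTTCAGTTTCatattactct
EPSTI1: ctgattctgaGAAACCGAAActcagctgtt
LGALS3BP: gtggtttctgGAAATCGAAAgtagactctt
WARS: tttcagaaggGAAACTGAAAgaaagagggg
DDX60L and SAMD9 also hold the letters and were called in no treatment against DMSO. Their fitted values were above DMSO in all 6 treatments of both lines at 24 h, and their stretches are not shown. The next stretches are from other genes with the same letters that were called in no treatment against DMSO.
TRIM5: atagtttatcTTTCACTTTCctgccctgag
GBP3: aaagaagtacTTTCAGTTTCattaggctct
NMI: ttaaagcagtTTTCTTTTTCactgtctttt
TMEM140: gttaggaaacGAAAGTGAAAtcagctgata

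The RTP4 stretch lies at chr3:187368333-187368362, 42 bases before the start, and the EPSTI1 stretch at chr13:42992272-42992301, 50 bases before the start. The DDX60 match begins 88 bases before the start (chr4:168318821-168318850), and that of TRIM14 begins 26 bases before it (chr9:98119229-98119258). The GBP1 and GBP3 stretches share the 10 capital letters. In GBP1 (chr1:89065316-89065345) they begin 127 bases before the start, and in GBP3 (chr1:89022845-89022874) they begin 2 bases after it. The WARS stretch (chr14:100375383-100375412) belongs to the second of its listed promoters. The remaining stretches are at chr17:78979962-78979991 (LGALS3BP), chr11:5685082-5685111 (TRIM5), chr2:151289812-151289841 (NMI) and chr7:135148009-135148038 (TMEM140).

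Calls were made among genes with and without the letters. After 24 h in RBN-2397 at 300 nM, 12 of 18 genes with the GAAA pair and 8 of 14 without it were called higher in NCI-H1373. The same counts in NCI-H647 were 7 of 18 and 8 of 15. Over all genes tested 6.83% and 2.22% were called higher in the 2 lines.

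Libraries held 630654 to 5994186 counts in NCI-H1373 and 1769114 to 6938453 in NCI-H647. The shallow libraries of NCI-H1373 (630654 to 2011404 counts) were those numbered 3 at 6 h and those numbered 2 and 3 at 24 h, and every group had shallow and deep ones. Marker genes of immune and stromal cells summed to 4.95 to 23.8 CPM (TMM-scaled counts, set to a common library size) in every library, with 2 to 7 of the 12 at 0 in all libraries of a group. Marker genes of epithelial cells (EPCAM, KRT8, KRT18, KRT19 and CDH1) were present throughout. In NCI-H1373 at 24 h their sum was 2002 to 2444 CPM in DMSO and 2194 to 7182 CPM in treated libraries (median 4825). In NCI-H647 at 24 h it was 384.5 to 496.3 CPM in DMSO and 307.7 to 1230 CPM in treated libraries (median 714). Whether the sum followed the interferon-stimulated genes from library to library was not examined. Their part in the results was not tested. In bulk RNA, more cells that express a gene and more RNA per cell cannot be told apart.

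After 24 h calls in NCI-H1373 were most numerous at the top dose of RBN-2397. At 300 nM, 25 of the 44 tested genes were called higher than in DMSO and 0 lower (edgeR quasi-likelihood F test, Benjamini-Hochberg adjusted p below 0.05). Over all 12832 genes 6.83% were called higher and 5.05% lower. The median log2 fold change was 1.08 for the 44 genes and 0.00 for all genes tested. Libraries in RBN-2397 at 300 nM and in DMSO did not overlap in 26 of the 44 genes with the treated libraries above, against 14.5% of all genes. When the 6 treatments were averaged, 18 of 44 were called higher and 0 lower, against 6.13% and 6.02% of all genes, and the median was 0.71.

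The number of calls leaned on single libraries. The count of 25 became 11 without DMSO replicate 1, 15 without DMSO replicate 2, 11 without treated replicate 2 and 14 without treated replicate 3. The count of 18 became 4 without DMSO replicate 1 and 8 without DMSO replicate 2. At 300 nM, 7 genes kept their call in all of these and in the 4 other ways of processing: RTP4, TRIM14, SP110, GBP1, APOL6, WARS and XAF1. For the mean of the treatments 3 did so: RTP4, TRIM14 and XAF1.

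In NCI-H647 calls at 24 h were also most numerous at 300 nM of RBN-2397, where 18 of 46 genes were called higher and 0 lower, against 2.22% and 1.16% of 14789 genes. The median log2 fold change was 1.17, and that of all genes was -0.03. Treated and DMSO libraries did not overlap in 29 of 46 genes with the treated ones above, against 9.74% of all genes. Averaged over the 6 treatments, 13 of 46 were called higher and 0 lower, against 2.26% and 2.72% of all genes, with a median of 0.85. The count of 18 became 0 without treated replicate 3, 1 without DMSO replicate 2 and 4 without DMSO replicate 3. The count of 13 became 0 without DMSO replicate 2 and 1 without DMSO replicate 3. No gene of this line kept its call through every such omission, in either comparison.

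**Figure D1:**
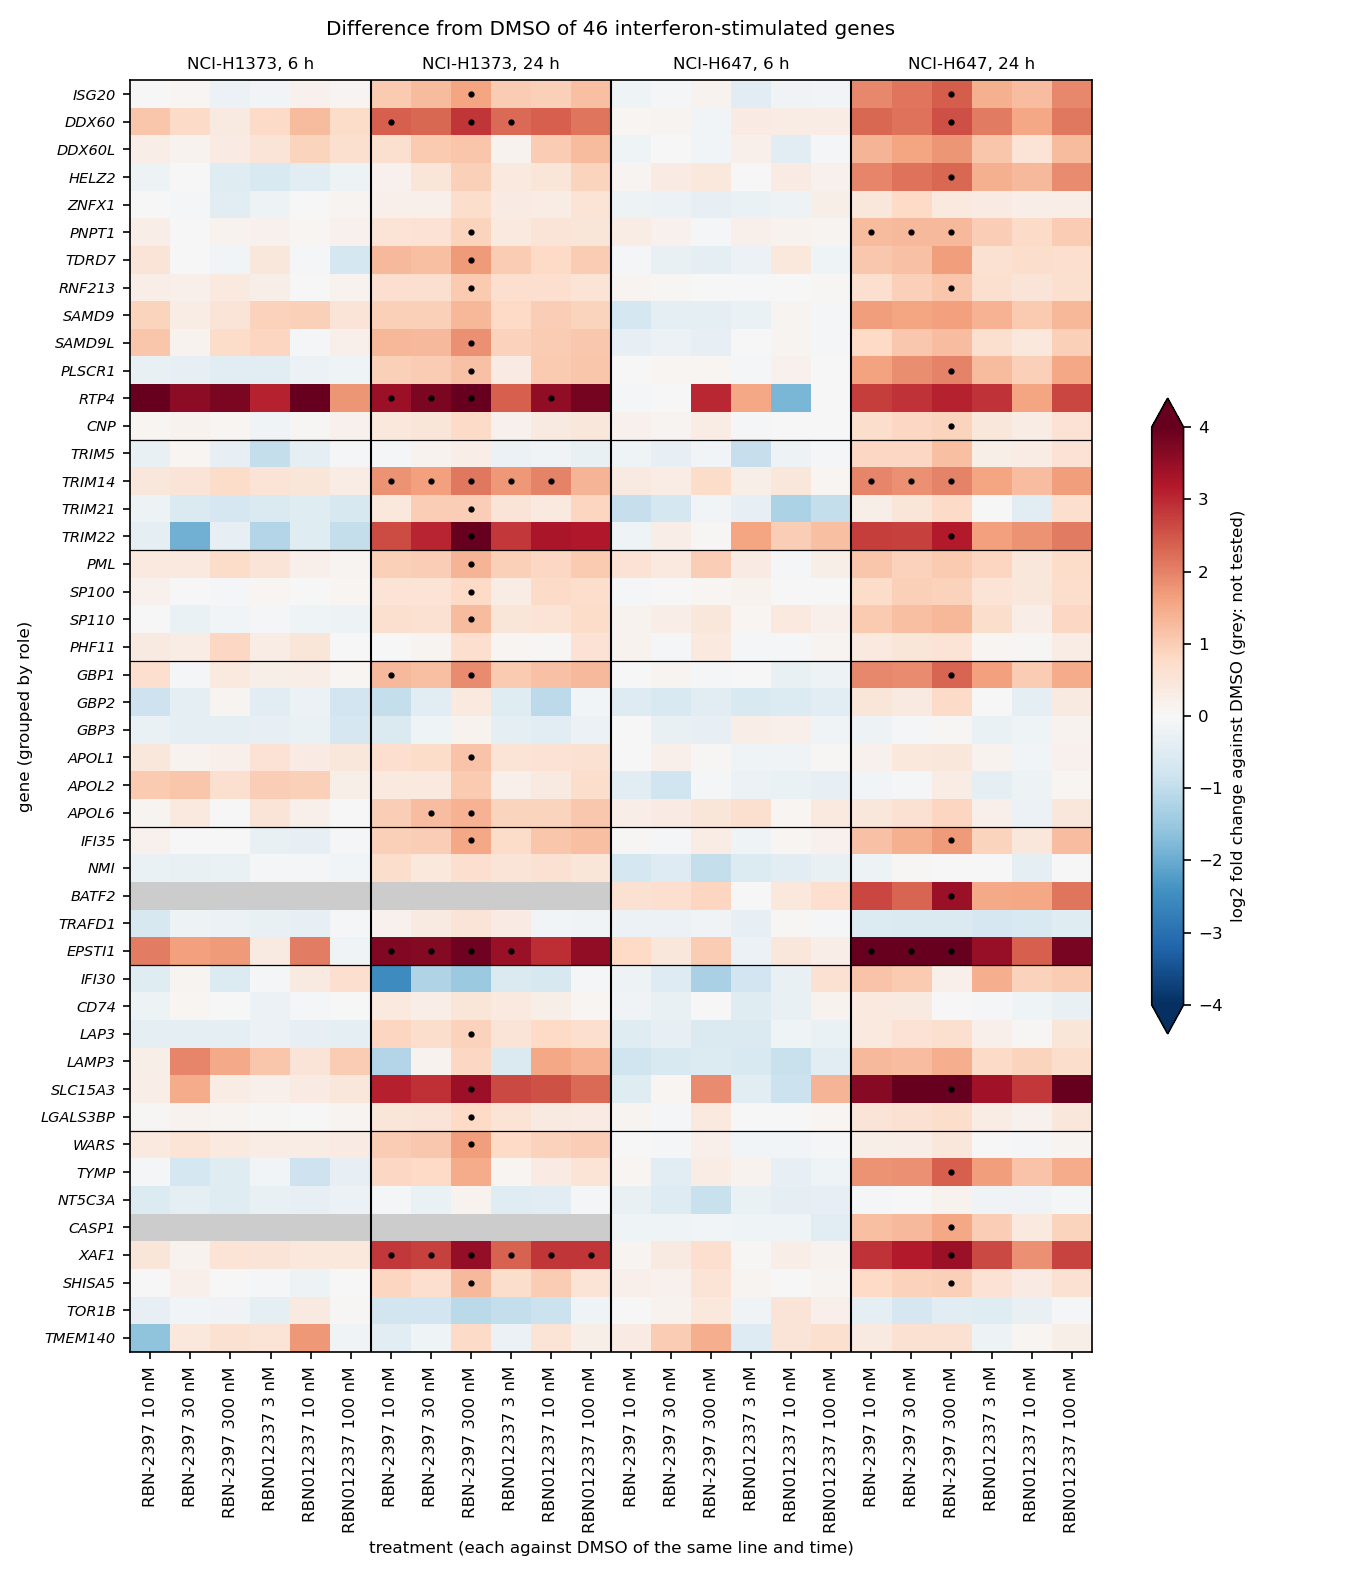
Log2 fold change of each of the 46 genes (rows, grouped by role) in each treatment (columns, each set against its own DMSO group), with a black dot where the adjusted p was below 0.05 and grey where the gene was not tested. Dots appear in the 24 h columns alone, most of them at 300 nM of RBN-2397 (25 in NCI-H1373 and 18 in NCI-H647).

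The largest group, with 13 genes, held RNA helicases, nucleases and other antiviral proteins, among them RTP4 and PLSCR1, which are not known as enzymes of RNA. At 300 nM 8 of 13 were called higher in NCI-H1373 and 7 of 13 in NCI-H647, against 6.83% and 2.22% of all genes. The fitted value was above 0 for all 13 in both lines, against 50.2% and 47.8% of all genes. RTP4, a chaperone of membrane receptors that is strongly induced by interferon, was at 1.03, 0 and 0 CPM in the 3 DMSO libraries of NCI-H1373. It reached 4.25, 26.1 and 22.9 CPM at 300 nM. The treated libraries were all above the DMSO libraries, with the first of them well below the other two. The difference was 4.78 ± 0.93 on the log2 scale (± standard error, n = 3 per group, adjusted p = 0.00112). In NCI-H647 the same gene held 3 counts in DMSO, and 300 nM gave 9.54 times as much (95% counting interval 3.01 to 48.5), which did not pass the test there.

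DDX60, a helicase tied to RNA sensing, was at 14.98, 9.62 and 32.98 CPM in DMSO and at 92.5, 107 and 165 CPM at 300 nM in NCI-H1373. Groups did not overlap, although the third DMSO library stood above the other two. The log2 difference was 2.85 ± 0.71 (adjusted p = 0.00967). In NCI-H647 it went from 5.06, 5.51 and 6.47 CPM to 28, 19.9 and 53.0 CPM, a difference of 2.58 ± 0.68 (adjusted p = 0.0304). DDX60 and its neighbour DDX60L are similar in sequence, so their counts may share reads. The same holds for the pair SAMD9 and SAMD9L, for GBP1, GBP2 and GBP3, for the APOL genes and for TRIM5 and TRIM22.

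PNPT1, a ribonuclease of mitochondria, was called at all 3 doses of RBN-2397 in NCI-H647. Its DMSO libraries were at 57.3, 41.99 and 67.0 CPM and its libraries at 300 nM at 109, 89.3 and 204 CPM. All treated values were above all DMSO values, and the third was the highest. The difference at 300 nM was 1.29 ± 0.31 (adjusted p = 0.0155). In NCI-H1373 the third DMSO library, at 98.9 CPM, overlapped the treated range of 77.1 to 127 CPM, and the difference was 0.88 ± 0.28 (adjusted p = 0.0312). ISG20, an exonuclease that degrades single-stranded RNA, was called at 300 nM in both lines, by 1.59 in NCI-H1373 and 2.43 in NCI-H647. HELZ2, a helicase that acts as a nuclear coactivator, was called in NCI-H647 alone, where it rose by 2.28 ± 0.65. Its value in NCI-H1373 was 0.96 ± 0.42 (adjusted p = 0.130), and the difference between the lines in the mean response did not pass the test (adjusted p = 0.501).

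Among the 4 TRIM proteins, which are mostly ubiquitin ligases, TRIM14 was called in both lines. It is an adaptor of antiviral signalling at mitochondria. In NCI-H1373 its DMSO libraries were at 15.8, 13.7 and 15.6 CPM and its libraries at 300 nM at 54.0, 62.4 and 78.5 CPM. All 18 treated libraries of the 24 h set, which ran from 19.7 CPM (median 54.4) to 78.5 CPM, were above the 3 DMSO libraries. The difference was 2.11 ± 0.36 at 300 nM (adjusted p = 0.000312), and TRIM14 was called in 5 of the 6 treatments. In NCI-H647 it went from 23.4, 9.12 and 14.1 CPM to 46.3, 50.6 and 85.9 CPM, by 1.99 ± 0.44 (adjusted p = 0.0111), and it was called at all 3 doses of RBN-2397.

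TRIM22, an antiviral ubiquitin ligase, was nearly silent in DMSO, with 2 counts over 3 libraries of NCI-H1373 (0.258, 0.506 and 0 CPM). At 300 nM it was at 3.85, 5.08 and 9.91 CPM, all above DMSO. The ratio of the groups was 16.4 (95% counting interval 4.25 to 140), and the gene was called in the fit (4.09 ± 1.12, adjusted p = 0.0139). It was also called at 300 nM in NCI-H647, from 0.316, 0.516 and 1.18 CPM to 2.15, 2.76 and 11.8 CPM (3.18 ± 0.87, adjusted p = 0.0337). There the third treated library was far above the other two. TRIM21, a receptor for antibodies in the cytosol, was called in NCI-H1373 at 300 nM (0.98 ± 0.33, adjusted p = 0.0466). TRIM5, a factor that restricts retroviruses, was at 0.26 ± 0.50 there and at 1.22 ± 0.47 in NCI-H647 and was called in neither.

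Of the 4 genes of PML nuclear bodies and chromatin, 3 were called at 300 nM in NCI-H1373 and 0 in NCI-H647 by edgeR, where 3 had an unadjusted p below 0.05 and DESeq2 called 1 (SP100, 0.92 on the log2 scale, adjusted p = 0.0408). PML, the scaffold of the bodies, was at 17.3, 24.8 and 3.47 CPM in DMSO and at 31.8, 56.6 and 47.3 CPM at 300 nM in NCI-H1373. Groups did not overlap, and the third DMSO library, the shallowest of all with 630654 counts, was the lowest. The difference was 1.37 ± 0.35 (adjusted p = 0.00948). SP100, another constituent of the bodies, went from 107, 103 and 74.6 CPM to 125, 177 and 204 CPM, by 0.80 ± 0.24 (adjusted p = 0.0255). In NCI-H647, all 3 libraries at 300 nM were above all 3 DMSO libraries for both genes. PML was there at 25.3, 28.5 and 47.3 CPM against 19.3, 19.5 and 7.64 CPM, and SP100 at 95.6, 107 and 203 CPM against 62.3, 76.9 and 75.3 CPM.

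The guanylate-binding proteins, GTPases that attack the compartments of intracellular pathogens, differed from one another, with GBP1 the 1 called. GBP1 went from 11.4, 5.57 and 13.9 CPM in DMSO to 27.5, 34.8 and 47.3 CPM at 300 nM in NCI-H1373, with no overlap (1.88 ± 0.42, adjusted p = 0.00313). In NCI-H647 it went from 20.6, 10.2 and 24.7 CPM to 56.0, 56.2 and 153 CPM (2.32 ± 0.57, adjusted p = 0.0214). GBP2 was at 0.40 ± 0.46 and 0.77 ± 0.33 and GBP3 at 0.13 ± 0.29 and 0.04 ± 0.41 in NCI-H1373 and NCI-H647. Neither was called in any comparison with DMSO. Of the apolipoprotein L genes, APOL6 was at 29.2, 23.3 and 32.98 CPM in DMSO and at 52.0, 83.4 and 84.6 CPM at 300 nM in NCI-H1373 (1.38 ± 0.32, adjusted p = 0.00512). All 18 treated libraries, at 41.4 CPM or more, were above DMSO. In NCI-H647 its range at 300 nM, 30.2 to 69.3 CPM, overlapped the DMSO range of 17.1 to 32.5 CPM, and it was not called.

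The regulators of the pathway held called genes in both lines beside others that were called in neither. EPSTI1, a gene first found in the crosstalk of epithelial and stromal cells, held 3 counts in the DMSO group of NCI-H1373 (0.775, 0 and 0 CPM) and was at 5.87, 10.2 and 5.34 CPM at 300 nM. The ratio was 14 (95% counting interval 4.53 to 70.3), and the fitted difference was 3.88 ± 1.03 (adjusted p = 0.0115). In NCI-H647 it went from 3.80, 0.172 and 5.29 CPM to 43.9, 29.6 and 81.6 CPM (4.42 ± 1.01, adjusted p = 0.0143). It was the 1 gene besides TRIM14 and PNPT1 called at all 3 doses of RBN-2397 in that line.

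IFI35, which forms a complex with NMI, went from 16.0, 24.8 and 19.1 CPM to 30.8, 82.7 and 65.6 CPM in NCI-H1373 (1.56 ± 0.39, adjusted p = 0.00801). In NCI-H647 it went from 12.3, 11.9 and 19.4 CPM to 29.6, 28.5 and 79.0 CPM (1.69 ± 0.41, adjusted p = 0.0156). Groups did not overlap in either line. Its partner NMI was at 0.67 ± 0.30 and -0.01 ± 0.28 and was not called. BATF2, a transcription factor, rose in NCI-H647 by 3.46 ± 0.94 (adjusted p = 0.0306), from 0.316, 0.860 and 0 CPM to 2.42, 4.23 and 11.5 CPM. In NCI-H1373, where it was not tested, it was at 0.517, 2.03 and 0 CPM in DMSO and at 0.405, 0 and 4.58 CPM at 300 nM. TRAFD1, a feedback inhibitor of innate signalling, was at -0.58 ± 0.25 in NCI-H647 (adjusted p = 0.199).

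Genes of antigen handling and the lysosome responded unevenly. LAP3, a peptidase, went from 54.2, 49.1 and 102 CPM to 98.4, 115 and 166 CPM in NCI-H1373. The third DMSO library fell inside the treated range. The difference was 0.93 ± 0.29 (adjusted p = 0.0306). LGALS3BP, a secreted glycoprotein that binds galectins, went from 223, 291 and 181 CPM to 280, 500 and 448 CPM, also with overlap (0.81 ± 0.21, adjusted p = 0.0111). SLC15A3, a peptide and histidine transporter of lysosomes, held 1 count in the DMSO group of NCI-H647 and 51 at 300 nM, a ratio of 41.7 (95% counting interval 7.15 to 1680). In NCI-H1373 the counts were 3 and 30, a ratio of 8.42 (2.62 to 43.1), and the gene was called in both lines.

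CD74, the invariant chain of MHC class II, was not called in any comparison with DMSO. IFI30, a reductase that unfolds antigens in lysosomes, had a negative value in all 6 treatments of NCI-H1373 at 24 h, from -2.51 to -0.05, and a positive one in all 6 of NCI-H647, from 0.21 to 1.46. No value passed the test in either line, and the difference between the lines in the mean response, -2.04 ± 0.88, did not pass either (adjusted p = 0.443).

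XAF1, a promoter of apoptosis that antagonises the inhibitor XIAP, was called in all 6 treatments of NCI-H1373 at 24 h. Its DMSO libraries were at 12.4, 7.09 and 1.74 CPM and its libraries at 300 nM at 62.1, 112 and 130 CPM. The third DMSO value comes from the shallowest library (630654 counts) and rests on very few counts. All 18 treated libraries lay above DMSO, from 13.6 CPM (median 60.7) to 150 CPM. The difference at 300 nM was 3.53 ± 0.62 (adjusted p = 0.000559). In NCI-H647 it went from 4.43, 2.93 and 7.06 CPM to 21.3, 22.1 and 101 CPM (3.45 ± 0.90, adjusted p = 0.0303). The third treated library stood far above the others there.

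WARS, the tryptophanyl-tRNA synthetase, rose in NCI-H1373 from 32.8, 43.0 and 34.7 CPM to 84.2, 131 and 142 CPM (1.68 ± 0.34, adjusted p = 0.00162). In NCI-H647 it was at 73.4, 87.6 and 61.7 CPM in DMSO and at 91.3, 89.5 and 129 CPM at 300 nM. The groups did not overlap there, yet the gene was not called in any treatment of that line. The mean response was 0.91 ± 0.30 larger in NCI-H1373, the smallest unadjusted p of any of the 46 genes (0.00394), and that difference did not pass after adjustment (adjusted p = 0.202). TYMP, a thymidine phosphorylase, was called at 300 nM in NCI-H647 (2.40 ± 0.54, adjusted p = 0.0111), from 4.75, 3.96 and 5.29 CPM to 15.9, 17.7 and 38.9 CPM. CASP1, the protease of inflammasomes, was also called there (1.53 ± 0.40, adjusted p = 0.0238), from 14.6, 2.75 and 8.23 CPM to 24.0, 18.6 and 28.4 CPM. TOR1B, a torsin of the endoplasmic reticulum, was below DMSO in the fit in all 12 treatments at 24 h, from -1.09 to -0.05, and was called in none (smallest adjusted p = 0.0685).

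**Figure D2:**
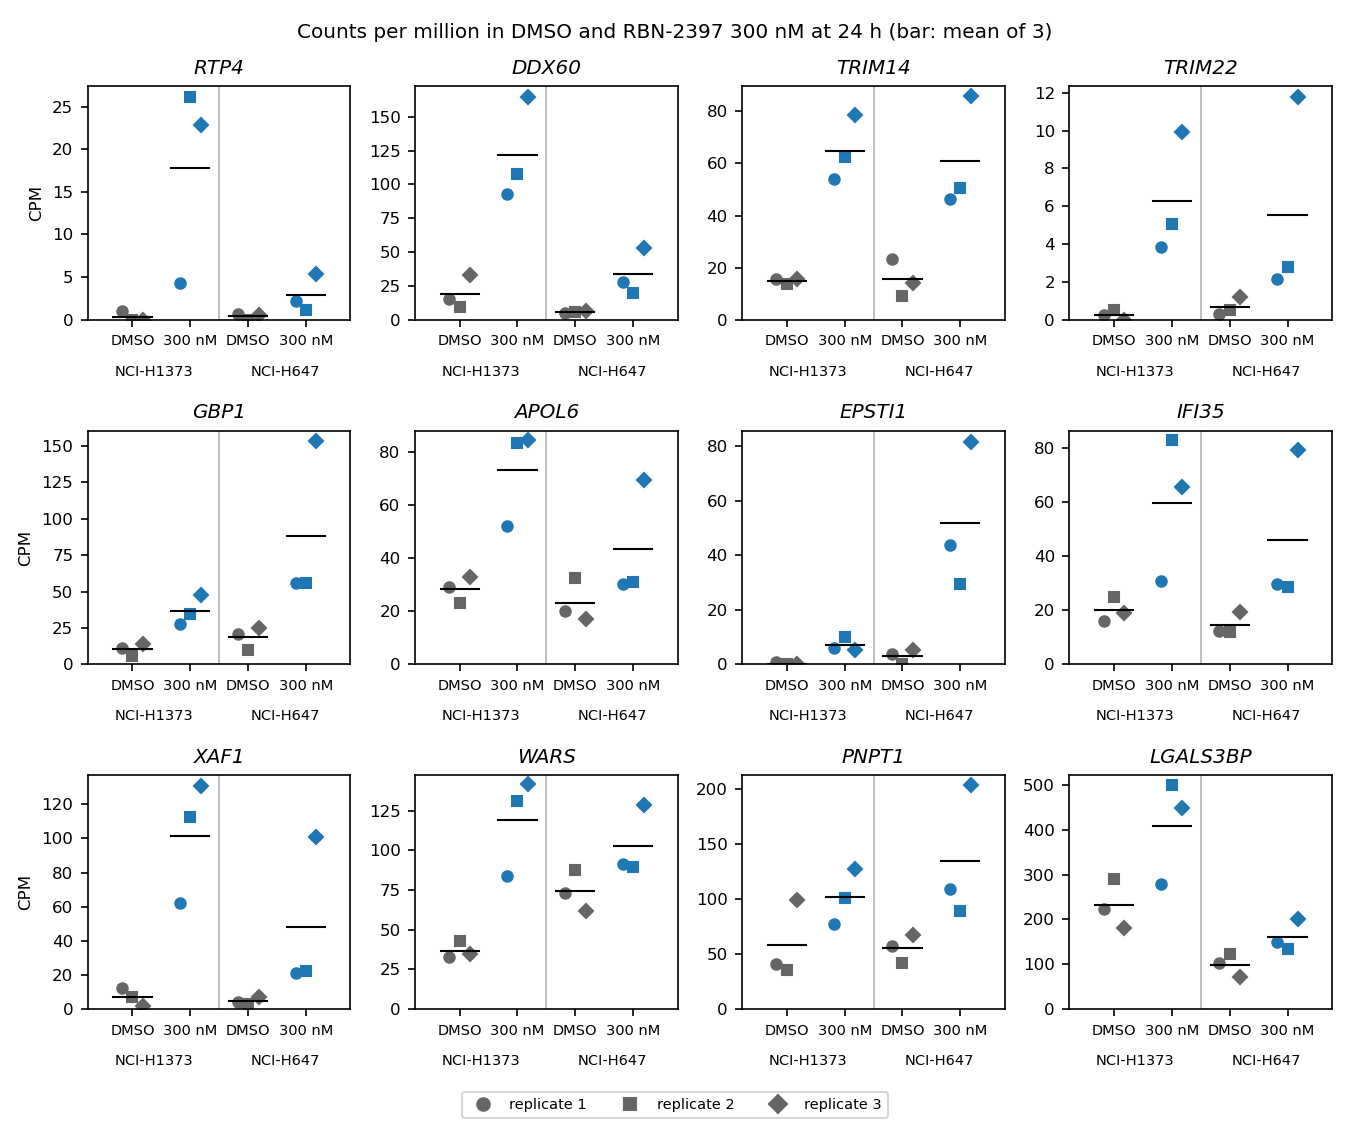
CPM of 12 genes in each library of DMSO (grey) and RBN-2397 300 nM (blue) at 24 h in both lines, with marker shape for the replicate number and a bar for the mean of 3. The treated libraries of TRIM14 are at 54.0 to 78.5 CPM in NCI-H1373 and 46.3 to 85.9 CPM in NCI-H647, above all DMSO libraries, and replicate 3 is the highest treated library of every gene shown in NCI-H647.

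The mean level of all 46 genes, as the mean of log2 CPM with a prior count of 2, was taken per library, with no test. In NCI-H1373 at 24 h it was 4.10, 3.91 and 3.40 in the DMSO libraries and 4.73, 5.27 and 5.43 at 300 nM of RBN-2397. At 100 nM of RBN012337 it was 4.30, 3.99 and 5.54, so that the second library lay within the DMSO range and the third was the highest of all. In NCI-H647 it was 3.64, 3.57 and 3.63 in DMSO, 4.45, 4.48 and 5.54 at 300 nM, and 4.33, 3.47 and 5.17 at 100 nM of RBN012337. The group means at 10, 30 and 300 nM of RBN-2397 in NCI-H647 were 0.96, 1.07 and 1.21 above DMSO, and those at 3, 10 and 100 nM of RBN012337 were 0.72, 0.46 and 0.71 above it. In NCI-H1373 the same differences were 0.81, 0.84 and 1.34 for RBN-2397 and 0.75, 0.84 and 0.81 for RBN012337. Replicate 3 was the highest library in 6 of the 6 treated groups of NCI-H647 at 24 h, and replicate 1 was the highest in 6 of the 6 at 6 h.

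Read within each replicate number, the median of the genes at 300 nM against the DMSO library of that number was 0.64, 1.21 and 1.82 for replicates 1 to 3 of NCI-H1373. The first of these libraries were the deep ones. In NCI-H647 the 3 medians were 0.63, 0.61 and 1.81. All 6 medians were above 0, and the third was the largest in each line. DMSO replicate 3 of NCI-H1373, the base of its 1.82, was the shallowest library of all, with 630654 counts. Across all 36 treated libraries at 24 h, the median was below 0 in 3. These were replicate 1 of RBN012337 10 nM (-0.13, 19 of 46 genes positive) and replicate 2 of RBN012337 100 nM (-0.08, 18 of 46) in NCI-H647, and replicate 2 of RBN-2397 30 nM (-0.01, 22 of 44) in NCI-H1373.

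**Figure D3:**
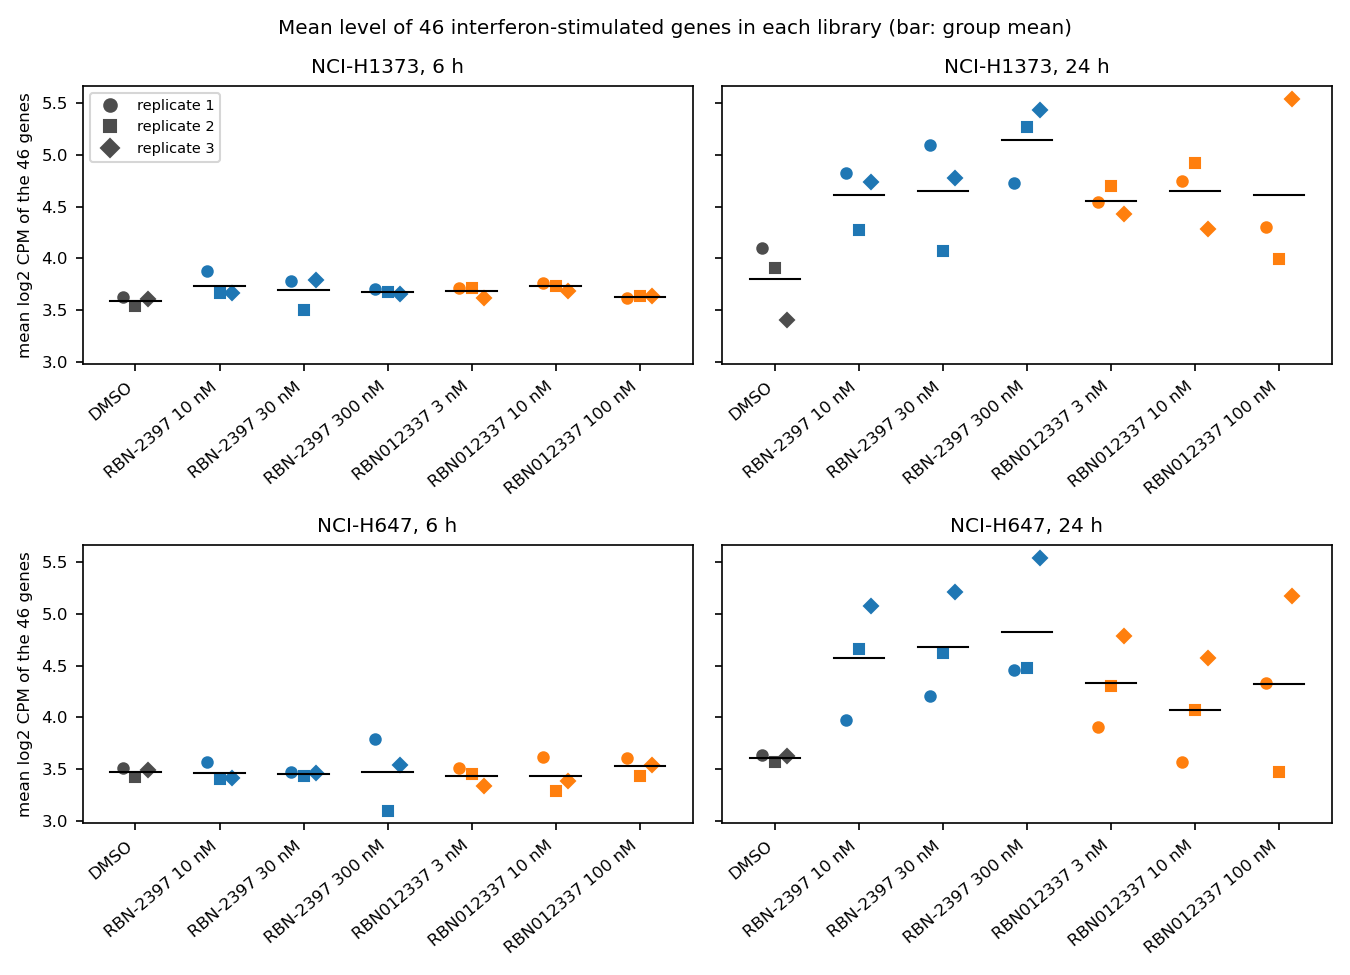
Mean log2 CPM of the 46 genes in each library, by treatment (DMSO grey, RBN-2397 blue, RBN012337 orange), line and time, with marker shape for the replicate number and a bar for the group mean. At 6 h the treated libraries lie between 3.50 and 3.88 in NCI-H1373 (DMSO at 3.54 to 3.63) and between 3.10 and 3.79 in NCI-H647 (DMSO at 3.43 to 3.51), and at 24 h the treated groups of both lines spread from 3.47 to 5.54 with DMSO at 3.40 to 4.10.

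Calls by dose at 24 h did not rise evenly. In NCI-H1373 RBN-2397 at 10, 30 and 300 nM gave 6, 5 and 25 genes called higher of 44. The same call was made for 4.26%, 1.68% and 6.83% of all genes. RBN012337 at 3, 10 and 100 nM gave 4, 3 and 1, against 4.96%, 1.86% and 0.195% of all genes. XAF1 was the 1 gene called at 100 nM, with 29.97, 13.6 and 150 CPM in its 3 libraries, and 0 were called once the replicate number was a block in the fit, in a treatment whose same-numbered libraries deviated together with DMSO. In NCI-H647 RBN-2397 gave 3, 3 and 18 of 46, against 1.08%, 0.696% and 2.22% of all genes. With the block, RBN-2397 gave 10, 6 and 29 in NCI-H1373 and 17, 22 and 23 in NCI-H647. RBN012337 at 3 and 10 nM gave 6 and 7 with it in NCI-H1373. Shares of all genes in that fit are not given here.

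RBN012337 gave 0 of 46 called at each dose in NCI-H647 by edgeR, where 0.365%, 0.135% and 0.101% of all genes were called higher. At an unadjusted p below 0.05 the counts were 20, 6 and 19, and DESeq2 called 3, 0 and 2. Without replicate 2 at 100 nM 10 were called, and without DMSO replicate 1 the count at 3 nM became 2. The smaller counts of RBN-2397 also moved with single libraries. In NCI-H1373 the 6 at 10 nM became 2 without treated replicate 1, DMSO replicate 1 or DMSO replicate 2, 3 without treated replicate 3 and 10 without DMSO replicate 3. The 5 at 30 nM became 0 without treated replicate 1, DMSO replicate 1 or DMSO replicate 2, 2 without treated replicate 3, 9 without treated replicate 2 and 8 without DMSO replicate 3. In NCI-H647 both counts of 3 became 0 without replicate 2 or 3 of either the treated or the DMSO group. Without treated replicate 1 they became 5 and 7, and without DMSO replicate 1 they became 5 and 9. For RBN012337 in NCI-H1373, the 4 at 3 nM became 1 without DMSO replicate 1 or treated replicate 2, and 2 without DMSO replicate 2 or treated replicate 1. The 3 at 10 nM became 1 without DMSO replicate 1 or 2 and 6 without DMSO replicate 3. The 1 at 100 nM became 0 without any 1 DMSO library or treated replicate 3, 2 without treated replicate 1 and 4 without treated replicate 2.

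Across the 6 treatments at 24 h, 34 of 44 genes in NCI-H1373 were above DMSO in all 6, 2 below in all 6 and 8 mixed. Of all genes tested in that line, 26.3% were above in all 6. In NCI-H647 33 of 46 were above in all 6, 2 below in all 6 and 11 mixed, and 25.7% of all genes were above in all 6. These treatments share their DMSO libraries, so the 6 values of a gene are not independent. The top and the lowest dose of each compound were also compared directly. None of the genes was called in either line for either compound (edgeR). Of all genes, 0%, 0.125%, 0% and 0% were called in those 4 comparisons, in the order RBN-2397 and RBN012337 in NCI-H1373, then in NCI-H647. At an unadjusted p below 0.05 there were 6, 2, 0 and 0 genes, and DESeq2 called 0 in each. The median difference of the 300 nM from the 10 nM libraries of RBN-2397 was 0.45 in NCI-H1373, with 42 of 44 genes positive, and 0.28 in NCI-H647, with 39 of 46. For RBN012337, from 3 to 100 nM, it was 0.20 and 0.15. Without replicate 3 of RBN012337 100 nM, 3 genes were called lower at 100 nM than at 3 nM in NCI-H1373.

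The compounds could be compared at 10 nM, the one dose they share, in 4 pairs (each line at each time). No gene was called in any of them, against 0% of all genes, by edgeR or DESeq2. At an unadjusted p below 0.05 there were 1 gene at 6 h and 1 at 24 h in NCI-H1373 and 0 and 3 in NCI-H647. At 24 h the median difference, RBN-2397 minus RBN012337, was 0.05 in NCI-H1373, with 26 of 44 genes positive. In NCI-H647 it was 0.52, with 44 of 46 positive, against 49.6% of all genes. The 95% intervals of single genes (from the standard error with 28 degrees of freedom) were wide. For TRIM14 at 24 h the bounds were -0.83 and 0.48 in NCI-H1373, against -0.10 and 1.59 in NCI-H647. For XAF1 they were -1.09 and 1.05, against -0.52 and 2.63. LAMP3 in NCI-H1373 was lower with RBN-2397 by the fit (-2.73, interval -4.96 to -0.51), and EPSTI1 in NCI-H647 was above (1.76, interval 0.13 to 3.40), both with an adjusted p of 1. The labels place 10 nM at different points of inhibition for the 2 compounds, so equal doses are not equal effects.

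After 6 h none of the genes was called in any treatment of either line by edgeR. Of all genes of NCI-H1373, the 3 rising doses of RBN-2397 changed 0.312%, 0.0234% and 1.61%, those of RBN012337 0.468%, 0.195% and 0%, and the mean of the 6 treatments 1.16%. In NCI-H647 the same shares were 0.00676%, 0% and 0.00676%, then 0%, 0% and 0%, and 0.0135% for the mean. Between 0 and 4 of the 46 genes had an unadjusted p below 0.05, and DESeq2 called 0 in each of the 12 treatments. Without DMSO replicate 1 of NCI-H647, 2 genes were called lower at 300 nM and 1 in the mean of the 6 treatments. The medians were between 0.04 and 0.10 in NCI-H1373 and between -0.08 and 0.04 in NCI-H647. The mean log2 level of the 46 genes at 6 h was 0.04 to 0.14 above DMSO in the 6 treated groups of NCI-H1373, and from -0.04 to 0.05 relative to DMSO in those of NCI-H647.

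Genes whose treated libraries were all above their DMSO libraries at 6 h were counted in each treatment. In NCI-H1373 their share was above that over all genes at every dose except 300 nM of RBN-2397. In NCI-H647 it lay on both sides of that over all genes. In NCI-H1373 the 3 rising doses of RBN-2397 gave 8, 3 and 4 of 44, against 8.47%, 3.03% and 9.33% of all genes. Those of RBN012337 gave 8, 9 and 2, against 9.28%, 6.34% and 3.44%. In NCI-H647 the counts were 1, 1 and 3 of 46 for RBN-2397, against 5.89%, 4.66% and 5.27%, and 2, 3 and 0 for RBN012337, against 4.87%, 3.5% and 3.92%. By fitted value, 14 of 44 genes in NCI-H1373 were above DMSO in all 6 treatments, against 22.4% of all genes. In NCI-H647 5 of 46 were, against 19.1%. The treatments of a line share their DMSO libraries. RTP4 had no count in the 3 DMSO libraries of NCI-H1373 and 12 counts at 10 nM of RBN012337 (2.09, 0.243 and 0.802 CPM). That is 3.40 times a floor of 3 counts over the DMSO group, with the 12 treated counts taken as they stand. The first treated library was well above the others, and the gene did not pass the test (adjusted p = 0.438). APOL2 had the smallest unadjusted p in NCI-H1373 (1.12 ± 0.39 at 30 nM of RBN-2397, adjusted p = 0.526). NMI had it in NCI-H647 (-0.97 ± 0.29 at 300 nM, adjusted p = 0.198).

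The later time gave larger values, without calls on the difference itself. The mean response at 24 h minus that at 6 h was positive for 37 of 44 genes in NCI-H1373 (median 0.60) and for 42 of 46 in NCI-H647 (median 0.96). None was called by edgeR, against 0.53% and 0% of all genes called in either direction. At an unadjusted p below 0.05 there were 15 and 18 genes, and DESeq2 called 2 and 0. Smallest in p were LAP3 (1.10 ± 0.31, adjusted p = 0.0830) and PLSCR1, a phospholipid scramblase (1.26 ± 0.37, adjusted p = 0.0933), in NCI-H1373, and ISG20 (1.98 ± 0.60, adjusted p = 0.630) in NCI-H647. In NCI-H1373 3 genes were called without replicate 3 of RBN012337 100 nM at 24 h, and 2 without its replicate 1, its replicate 2 or DMSO replicate 3 at 24 h. In NCI-H647 1 was called without DMSO replicate 1 at 24 h.

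Both lines share no library, so their responses can be set side by side. At 300 nM and 24 h, 13 of the 44 genes tested in both were called in both. That is 52.0% of the 25 called in NCI-H1373 and 81.2% of the 16 called in NCI-H647. The 13 are ISG20, DDX60, PNPT1, RNF213, PLSCR1, TRIM14, TRIM22, GBP1, IFI35, EPSTI1, SLC15A3, XAF1 and SHISA5. Across the 44 genes the log2 differences had a Pearson r of 0.826 and a Spearman rho of 0.809. Genes are not independent replicates, and within a line all values share the same DMSO libraries. For the mean of the 6 treatments 8 genes were called in both (44.4% of 18 and 61.5% of 13), with r of 0.817 and rho of 0.713. The same measures were taken over all 12240 genes tested in both lines. At 300 nM 125 of those were called higher in both, which is 16.0% of the 779 called higher in NCI-H1373 and 48.3% of the 259 called higher in NCI-H647, with r of 0.497 and rho of 0.510. For the mean of the treatments 108 were called higher in both (15.1% of 715 and 41.1% of 263), with r of 0.509 and rho of 0.516.

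Tested directly, the mean response differed between the lines for none of the genes at 6 or 24 h (edgeR, all 84 libraries). Over all 16177 genes 0% at 6 h and 0.47% at 24 h were called. At an unadjusted p below 0.05 there were 1 and 5 of 46, and DESeq2 called 0 at each time.

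**Figure D4:**
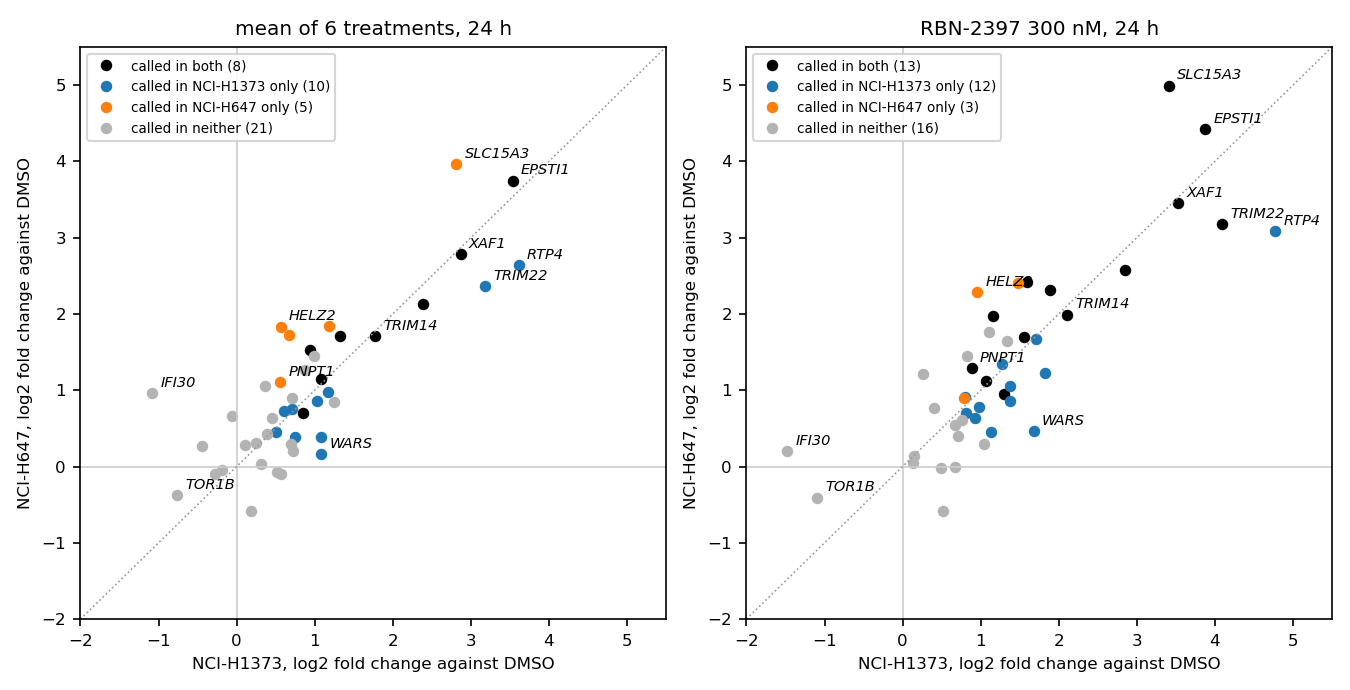
Log2 fold change of each gene in NCI-H1373 (horizontal) against NCI-H647 (vertical) at 24 h, for the mean of 6 treatments (left) and for RBN-2397 300 nM (right), coloured by the line in which it was called, with the line of equality dotted. EPSTI1, XAF1, TRIM22, RTP4 and SLC15A3 lie at the top of both axes, while IFI30 and TOR1B lie to the left of 0 in NCI-H1373.

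In DMSO, some of the genes differed between the lines. At 24 h in DMSO, 8 of 46 were called higher in NCI-H1373 and 2 lower, against 13.9% and 15.1% of all 16177 genes, so the share called higher was near that of all genes and the share called lower was below it. CD74 was the widest of those higher, at 157, 78.5 and 83.3 CPM in NCI-H1373 and 5.38, 9.29 and 1.76 CPM in NCI-H647 (4.21 ± 0.59, adjusted p = 6.26e-08). IFI30 was at 22.7, 9.11 and 52.1 CPM against 2.53, 2.75 and 1.76 CPM (3.40 ± 0.83, adjusted p = 0.00108). LGALS3BP differed by 1.31 ± 0.23 and SAMD9, a restriction factor of poxviruses, by 2.23 ± 0.57. The others were ISG20, RNF213, TRIM21 and GBP3. When each DMSO library was left out in turn, RNF213 kept its call in 0 of 6 fits and ISG20 in 2 of 6. RNF213 also kept it in only 1 of the 4 other ways of processing. CASP1 was lower in NCI-H1373, with 1 count in 3 DMSO libraries against 14.6, 2.75 and 8.23 CPM in NCI-H647 (adjusted p = 9.64e-06), and so was WARS, by 0.93 ± 0.28 (adjusted p = 0.0089). No pair of these groups overlapped for CD74, IFI30, LGALS3BP, SAMD9 or WARS.

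At 6 h 7 of the 46 were higher in NCI-H1373 and 7 lower, against 15.6% and 17.8% of all genes, shares near those of all genes. CD74, LGALS3BP, GBP3 and TRIM21 were higher and CASP1 and WARS lower at both times. LAMP3, a lysosomal membrane protein, held 1 count in the 6 h DMSO group of NCI-H1373 and was at 4.79, 14.01 and 4.95 CPM in NCI-H647 (adjusted p = 1.25e-05), and it was not called at 24 h. The count of 7 higher became 4 without DMSO replicate 3 of NCI-H647.

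Between 6 and 24 h in DMSO, 4 of 44 genes were called higher in NCI-H1373, against 3.66% of all genes, and untreated cells were not analysed here. SAMD9 went from 19.5, 17.8 and 36.0 CPM at 6 h to 130, 76.5 and 50.3 CPM at 24 h (1.88 ± 0.51, adjusted p = 0.0211), with no overlap. SAMD9L went from 4.72, 2.10 and 5.49 CPM to 27.9, 21.8 and 1.74 CPM (2.24 ± 0.65, adjusted p = 0.0287). The third library at 24 h was the shallowest of all, with 630654 counts. Its value, below those at 6 h, rests on very few counts. GBP3 (0.93 ± 0.30, adjusted p = 0.0441) and TMEM140, a transmembrane protein with 3 counts in the 6 h DMSO group (adjusted p = 0.0437), were the other genes called. None of the 4 kept its call in every omission of a library. The count became 7 without replicate 3 at 24 h, 0 without replicate 1 at 24 h, 0 without replicate 1 or replicate 2 at 6 h, and 1 without replicate 2 at 24 h. In NCI-H647 0 of 46 were called by edgeR, against 0.284% of all genes. There 7 had an unadjusted p below 0.05, and DESeq2 called 1 lower.

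**Figure D5:**
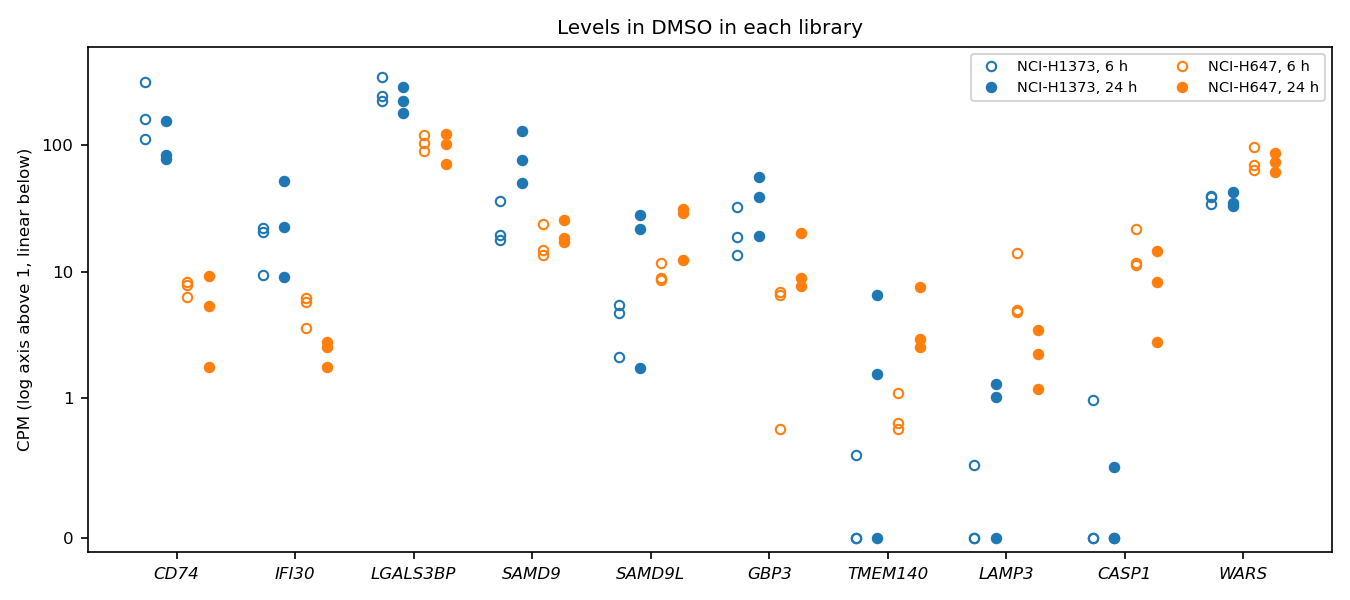
CPM in each DMSO library of both lines at 6 h (open) and 24 h (filled) for 10 of the genes, on an axis that is logarithmic above 1 and linear below. CD74 and LGALS3BP lie higher in NCI-H1373 (blue) and CASP1 and WARS higher in NCI-H647 (orange), and SAMD9 is higher at 24 h than at 6 h in NCI-H1373.

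The families left out of the set had higher medians than the 46 genes, and that difference was not tested. A list of 30 other interferon-stimulated genes (of the OAS, IFIT, MX, IFITM, PARP and ISG15 kind, with others such as RSAD2 and BST2) had 27 of 30 tested called higher at 300 nM and 24 h in NCI-H1373, with a median of 2.97, and 22 of 30 in NCI-H647, with a median of 3.09. The shares of all genes were 6.83% and 2.22%. OASL, an oligoadenylate synthetase-like protein, rose by 5.21 ± 0.78 in NCI-H1373 (adjusted p = 0.000226) and by 3.86 ± 0.74 in NCI-H647 (adjusted p = 0.00431). Of 18 genes of receptors, kinases and transcription factors of interferon signalling, 17 were tested in NCI-H1373 and 16 in NCI-H647. IFNAR1, a chain of the type I interferon receptor, was called lower in both (-0.96 ± 0.25 and -0.82 ± 0.20), and IFNGR1, a chain of the interferon gamma receptor, was called lower in NCI-H1373 (-1.49 ± 0.51). Of 21 interferon genes, 2 were tested in NCI-H1373 and 1 in NCI-H647, and 0 were called at 300 nM. IFNL1, a type III interferon, had an unadjusted p of 0.0262 in NCI-H1373 (2.88 ± 1.24, adjusted p = 0.128). Summed over the 21 genes, the level in NCI-H1373 at 6 h was 0.525 to 1.83 CPM in DMSO (median 0.590) and 0 to 18.5 CPM in the 18 treated libraries (median 9.39). At 24 h it was 0 to 2.58 CPM in DMSO (median 0.506) and 2.03 to 13.7 CPM in treated libraries (median 6.38), with 15 of the 21 genes at 0 in all treated libraries at either time. In NCI-H647 the sum at 6 h was 0.778 to 1.38 CPM in DMSO and 0 to 3.88 CPM in treated libraries, and at 24 h it was 0 to 1.21 CPM and 0.372 to 2.76 CPM. At 6 h the treated median in NCI-H1373 was thus above the highest DMSO library, with treated values down to 0 CPM. The sum was not tested at either time, nor was any order in time between it and the 46 genes. Calls of the 30 other interferon-stimulated genes at 6 h are not given here. Over all 84 libraries IFNL1 held 600 counts and IFNE 391, and no other of the 21 genes held more than 20. The sum therefore stands mainly for these genes, and its part in the results at 24 h was not tested.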

How the data were processed

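RNA of 84 libraries was read by 3′ digital gene expression. The authors deposited estimated counts per gene, made with Salmon against hg38 per the submitters' processing notes. Which annotation was used, and how strand and molecular identifiers were treated, is not stated in what was used here. Of the values above 0, 49.4% were not whole, and all were rounded. Gene identifiers were named from GENCODE 29 (57845 of 57964). Each line was fitted alone with edgeR 4.0.16 in R 4.3.3 (TMM scaling, filter on low counts, robust quasi-likelihood F test, Benjamini-Hochberg adjustment over all genes tested, threshold 0.05). All 84 libraries were fitted together for comparisons of the lines. The standard error is the log2 fold change divided by the square root of F. CPM values use the TMM scaling of their own line. The calculations were tested on simulated data. Alternatives were RLE scaling, DESeq2 1.42.0, no filter on low counts, the replicate number as a block, and leaving out each library in turn. Between the lines, only DMSO libraries were left out. Counting intervals and floors cover counting error alone, at 95%, with a floor of 3 counts. The genes, lists and rules were chosen with earlier results of these data known. By rule, all of the genes could be named with a fold change. CPM per library was given for the 2 genes of each role with the smallest p in the mean response of NCI-H1373 at 24 h and the 3 smallest in NCI-H647. For PML-body genes, BATF2, CASP1, TYMP, IFI30 and SAMD9L, values per library were added after they had been seen. Same-numbered libraries deviated together (every correlation with DMSO over 0.1) in 6 of 24 comparisons, among them RBN-2397 30 nM and RBN012337 100 nM of NCI-H1373 at 24 h. In the other comparisons at least 1 of these correlations was 0.1 or lower, which neither shows nor excludes a pairing by number. At 24 h, for example, they ran from 0.0487 to 0.276 at RBN-2397 300 nM of NCI-H1373. At RBN012337 3 nM of NCI-H647 they ran from -0.0428 to 0.147. The main fit did not use the replicate number. Of the interferon signalling list 1 gene, and 1 further promoter motif, are not reported here.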

Additional observations from a re-analysis of the deposited data

How the results depend on the processing

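No called value changed sign under any setting, while the number of genes called moved often. Without the filter on low counts, the calls higher than DMSO in NCI-H1373 were 1 each at 6 h for 10 nM of RBN-2397 and of RBN012337, and at 24 h 13 and 11 for RBN-2397 at 10 and 30 nM, and 9 and 9 for RBN012337 at 10 and 100 nM. In NCI-H647 at 24 h they were 20 and 23 for RBN-2397 at 10 and 30 nM, 12, 9 and 16 for RBN012337 at 3, 10 and 100 nM, and 24 for the mean of the treatments. Calls lower than DMSO without the filter were 1 each at 10 nM and 300 nM of RBN-2397 and in the mean in NCI-H1373 at 24 h, and 1 at 300 nM in NCI-H647 at 6 h. The mean response at 24 h minus 6 h then gave 6 and 12 genes higher, DMSO at 24 h against 6 h gave 2 and 4 higher and 1 and 1 lower, RBN-2397 against RBN012337 at 10 nM and 24 h gave 1 lower in NCI-H1373 and 1 higher in NCI-H647, and the response at 24 h was lower in NCI-H1373 than in NCI-H647 for 2.

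DESeq2 called 10 and 12 genes higher for RBN-2397 at 10 and 30 nM and 3 and 2 for RBN012337 at 3 and 100 nM in NCI-H647 at 24 h, with 1 lower in the mean of the treatments. In NCI-H1373 it called 2 higher for RBN012337 at 100 nM, 1 lower for RBN-2397 at 10 nM, and 2 higher in the response at 24 h minus 6 h. For DMSO at 24 h against 6 h it called 1 lower in NCI-H647.

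With the replicate number as a block, the calls higher at 24 h were 10 for RBN-2397 at 10 nM and 7 and 0 for RBN012337 at 10 and 100 nM in NCI-H1373. In NCI-H647 the block gave 17 and 22 for RBN-2397 at 10 and 30 nM, 9 and 6 for RBN012337 at 3 and 100 nM, and 20 for the mean of the treatments. The block also gave 1 lower at 300 nM and 1 in the mean of NCI-H1373, 2 and 1 higher at 24 h minus 6 h in NCI-H1373 and NCI-H647, 2 lower for DMSO at 24 h against 6 h in NCI-H1373, and 15 higher for DMSO of NCI-H1373 against NCI-H647 at 24 h. At RBN-2397 30 nM in NCI-H1373, where the numbers paired the libraries, it gave 6. Not every library correlated best with the DMSO library of its own number.

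When each library was left out in turn, the calls higher at 24 h ran in NCI-H1373 from 2 to 10, 0 to 9 and 11 to 29 for RBN-2397 at 10, 30 and 300 nM, from 1 to 5, 1 to 6 and 0 to 4 for RBN012337 at 3, 10 and 100 nM, and from 4 to 22 for the mean. In NCI-H647 they ran from 0 to 5, 0 to 9 and 0 to 18 for RBN-2397, from 0 to 2 and 0 to 10 for RBN012337 at 3 and 100 nM, and from 0 to 19 for the mean. Calls lower ran from 0 to 1 at 10 nM of RBN-2397 in NCI-H1373 at 24 h, 0 to 2 at 300 nM and 0 to 1 in the mean in NCI-H647 at 6 h, and 0 to 1 in its mean at 24 h. The response at 24 h minus 6 h ran from 0 to 3 and 0 to 1 higher, RBN012337 100 nM against 3 nM from 0 to 3 lower in NCI-H1373, and DMSO at 24 h against 6 h from 0 to 7 higher and 0 to 1 lower in NCI-H1373 and 0 to 1 lower in NCI-H647. DMSO of NCI-H1373 against NCI-H647 ran from 4 to 8 higher and 5 to 8 lower at 6 h, and from 6 to 7 higher and 2 to 3 lower at 24 h. With a prior count of 0.5 the mean level of the genes at 6 h in NCI-H1373 stood 0.14 above DMSO at 300 nM of RBN-2397 and 0.22 above it at 10 nM of RBN012337, against 0.08 and 0.14 with a prior count of 2. The cause of these moves was not tested. Genes with few counts, such as RTP4, TRIM22 and SLC15A3 in DMSO, limit the precision of a fold change.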
